A study of Mus musculus domesticus with 6 samples.

Results

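Bax, Bbc3, Pmaip1, Fas, Tnfrsf10b, Apaf1, Aen, Pidd1, Perp and Trp53inp1 are 10 target genes of the transcription factor p53 whose products promote apoptosis, the ordered self-destruction of a cell. They were chosen by symbol, matched to Ensembl gene identifiers, and all 10 were found among the 55359 entries of the gene tables. The study sequenced total RNA from BFU-E (burst-forming units-erythroid, the earliest progenitors committed to red blood cells) sorted from mouse livers at E14.5. There were 3 libraries of genotype Exosc3 fl/fl Cre+ and 3 of genotype Exosc3 fl/fl Cre-, and the floxed Exosc3 alleles were therefore present in both groups. EXOSC3 is a cap protein of the RNA exosome, a multi-subunit machine that shortens or destroys RNA. The strain label names Vav1-Cre, a transgene that is active across the blood lineages and not in BFU-E alone. The sort gate was GFP+ Lin- Kit+ CD24/71 10%low in both groups, and the labels do not say what the GFP marks. Per the series' design text the 6 samples came from 3 litters with a pair from each. Whether a sample was 1 embryo or a pool is not stated, so p-values measure only the spread between these samples.

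As background, p53 is kept low by MDM2 in unstressed cells and accumulates after DNA damage, ribosomal stress and other insults. It then switches on genes that arrest the cell cycle and genes that can kill the cell. The killing genes feed an intrinsic route, in which BCL2 relatives permeabilise mitochondria and released cytochrome c assembles the APAF1 apoptosome, and an extrinsic route, which starts at death receptors on the cell surface. Erythroid progenitors are known to be sensitive to p53, as in Diamond-Blackfan anaemia, where faulty ribosomes activate it.

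The libraries held between 89629949 and 124931215 expected counts. Exosc3 itself was at 26.8, 22.1 and 30.2 CPM (read counts scaled to library size) in Cre+ replicates 1, 2 and 3, against 51.9, 44.3 and 48.0 CPM in Cre- replicates 1, 2 and 3. It was lower in every Cre+ library and did not pass over all genes (edgeR adjusted p = 0.259, alternatives 0.00325 to 0.582, the lowest by DESeq2). Its reads also count exons that a recombined allele may still transcribe. All 11 markers of BFU-E and erythroid progenitors had reads in every library, with a sum of 1750 to 2190 CPM in Cre+ and 1546 to 1778 CPM in Cre-. For 8 of them the groups overlapped. As a measure for this and the marker counts below, 7.53% of all tested genes were higher and 7.66% lower in every Cre+ library. Car2 (408 to 538 CPM in Cre+, 205 to 239 CPM in Cre-) and Cd24a, which encodes an antigen of the sort gate (142 to 187 CPM in Cre+, 72.7 to 134 CPM in Cre-), were higher in every Cre+ library, and Car2 was the 1 marker called. Kit, another gene of the gate, was lower in every Cre+ library (334 to 355 CPM in Cre+, 375 to 426 CPM in Cre-). The 8 markers of later erythroid cells summed to 21.0 to 82.7 CPM in Cre+ and 12.1 to 25.5 CPM in Cre-, and 1 of them, Epb42, was separated, at 9.79 to 24.6 CPM in Cre+ and 2.38 to 7.42 CPM in Cre-. Some markers of other blood cells also moved with the genotype. The summed level of 8 neutrophil and monocyte markers was 229 to 503 CPM in Cre+ and 569 to 1473 CPM in Cre-. Most of this sum was Mpo, at 209 to 481 CPM in Cre+ and 512 to 1365 CPM in Cre-. Of the 8, 4 were lower in every Cre+ library and 4 overlapped. The sum of 6 lymphoid markers was 1.59 to 9.34 CPM in Cre+ and 34.2 to 124 CPM in Cre-. Of the 6, 3 were lower in every Cre+ library and 3 overlapped. Ly6c2 and Dntt, 1 from each of these lists, were at 0 counts in all libraries, and the part of these and the erythroid shifts in the results that follow was not tested. Macrophage and hepatocyte markers were low, with sums of at most 2.05 and 4.95 CPM in Cre+ and 3.73 and 8.35 CPM in Cre-. Mast cell and epithelial markers summed to at most 5.33 and 11.6 CPM in Cre+ and 9.46 and 8.92 CPM in Cre-. The 5 megakaryocyte markers summed to 37.0 to 60.3 CPM in Cre+ and 25.9 to 52.5 CPM in Cre-, with 1 higher in every Cre+ library. The 5 endothelial and stromal markers summed to 5.68 to 22.4 CPM in Cre+ and 19.1 to 35.8 CPM in Cre-, with 1 lower in every Cre+ library.

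All 10 genes had a positive log2 fold change in Cre+ over Cre-, and for 9 of them every Cre+ library lay above every Cre- library. The exception was Perp. The largest differences were in Bbc3, Trp53inp1 and Pmaip1, and in Fas, which had no read in any Cre- library. Apaf1 and Aen differed least. Higher reads per library do not tell more RNA per cell from a larger share of cells that carry the RNA.

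None of the 10 passed edgeR's quasi-likelihood test at an adjusted p under 0.05 over all 13117 tested genes, where 0.122% of genes were called higher and 0.0% lower. The libraries varied widely, with pairwise correlations of 0.778 to 0.832 and a common coefficient of variation of 85.4% by edgeR. A gene that did not pass is therefore not shown to be unchanged. Before adjustment, 9 of the 10 had a p under 0.05 and were higher, against 4.05% of all tested genes. Groups separated upward in 9 of 10 members, against 7.53% of all tested genes. The 10 genes were chosen with earlier results of these data known, so these shares describe them and are not a test of the set. The median log2 fold change was 1.54 over the 10 genes and -0.01 over all tested genes. Setting Fas to its lower bound could not move the median, because Fas stays the largest of the 10. By limma-voom 0 of the 10 were called, with 0.152% of all genes called higher. By the DESeq2 test 8 of the 10 were called higher, all but Apaf1 and Perp, with 1.79% of all genes called higher. When genes with few reads were not filtered out, edgeR called Pmaip1 and Trp53inp1, 2 of the 10, and 0.195% of all genes. Among genes averaging at least 1000 counts it called 4 of 8 members (Bax, Bbc3, Pmaip1 and Trp53inp1) and 0.696% of all genes. All 10 entered the test, but only 8 reached the filter's level in all 3 Cre- libraries. Fas entered through its Cre+ libraries alone and could therefore only differ upward. The main test had no litter term, because the labels do not say which libraries share a litter. An alternative edgeR fit that blocks on the replicate number called 2 of the 10, Pmaip1 and Trp53inp1, and 0.29% of all genes higher. Whether that number marks a litter is not known.

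**Figure D1:**
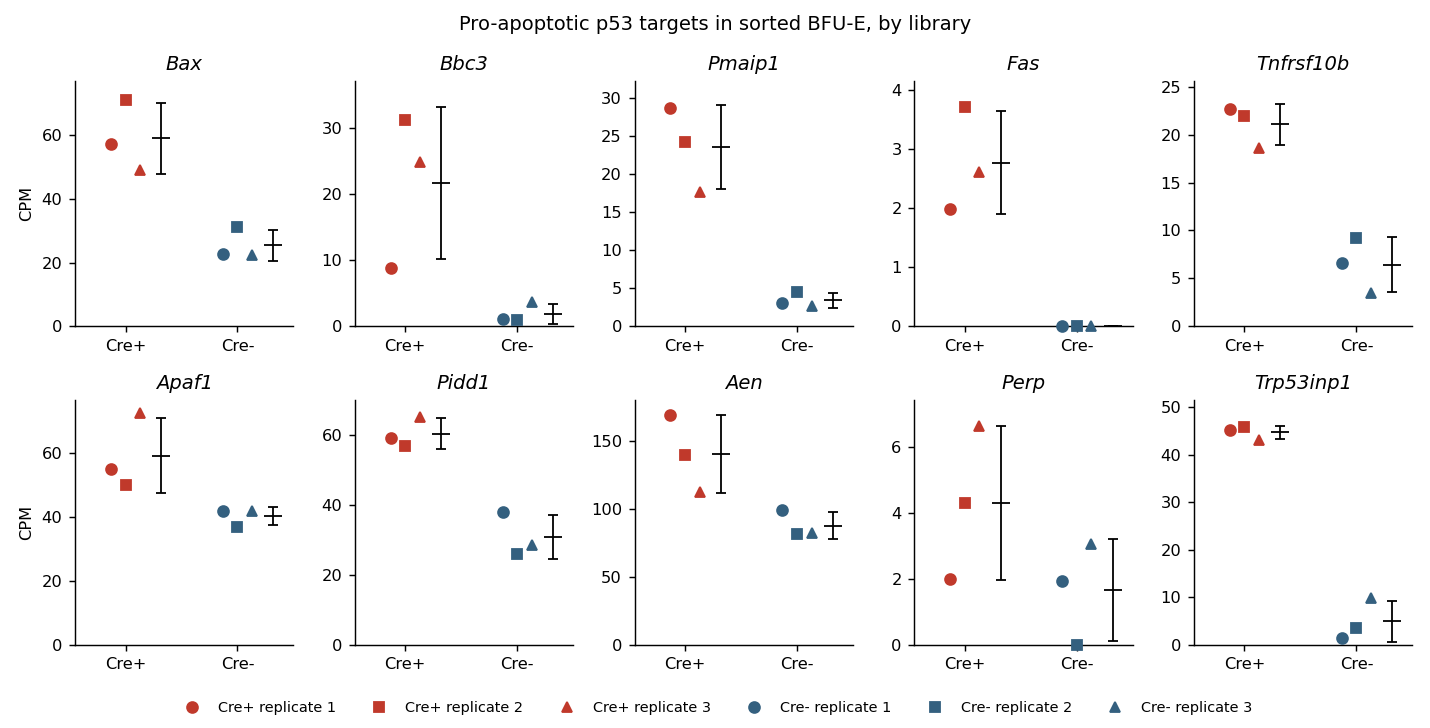
CPM of each gene (vertical axis, linear from 0) in the 3 Cre+ libraries, drawn left, and the 3 Cre- libraries, with the replicate number as the symbol and the mean ± SD (n = 3) as a black bar. The groups do not overlap in 9 of the 10 panels, and Perp is the one in which they do.

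The BCL2 family members of the set act at the mitochondrion, and all 3 were higher in every Cre+ library. Bax (ENSMUSG00000003873) encodes a protein that forms pores in the outer mitochondrial membrane. Bbc3 (ENSMUSG00000002083) encodes PUMA and Pmaip1 (ENSMUSG00000024521) encodes NOXA, small proteins that share with BAX the BH3 motif, the short helix through which they bind the groove of BCL2 relatives. The stretch that codes for this motif is shown for Bbc3 and Bax because both genes belong to the group with separated libraries and because the motif is what ties them to one mechanism. The sequences were read from the GENCODE M21 transcripts (build GRCm38), 5′ to 3′, with capitals for the 6 codons from the conserved leucine to the aspartate of the motif.
Bbc3: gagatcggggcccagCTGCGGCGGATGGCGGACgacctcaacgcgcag
Bax: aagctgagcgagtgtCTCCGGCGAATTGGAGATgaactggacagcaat
Aligned without gaps, 12 of the 18 capital bases and 24 of all 48 bases were identical.

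Bax stood at 57.2, 71.1 and 49.0 CPM in Cre+ replicates 1, 2 and 3, against 22.8, 31.0 and 22.3 CPM in Cre- replicates 1, 2 and 3. The lowest Cre+ library was thus above the highest Cre- library. The means were 59.1 ± 11.2 CPM in Cre+ and 25.4 ± 4.89 CPM in Cre- (SD, n = 3 each), a 2.33-fold difference. The log2 fold change was 1.22 ± 0.23 (SE, edgeR adjusted p = 0.138). Another gene model on the same strand, Gm45808, overlaps exons of Bax. It was given 44.2 expected counts in Cre+ replicate 2 and 0 in the other libraries.

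Bbc3 had 1097, 2769 and 2868 reads in Cre+ replicates 1, 2 and 3, and 101, 94 and 452 reads in Cre- replicates 1, 2 and 3. In CPM these were 8.83, 31.3 and 24.9 in Cre+ and 1.05, 0.897 and 3.64 in Cre-. Genes seen in just 1 library of the series had a median of 108 reads there, and the values of Cre- replicates 1 and 2 were below that. The means were 21.7 ± 11.6 CPM in Cre+ and 1.86 ± 1.54 CPM in Cre- (SD, n = 3 each), and the log2 fold change was 3.54 ± 0.73 (SE, edgeR adjusted p = 0.179). Without Cre- replicate 3, the highest of its group, it was 4.47.

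Pmaip1 was at 28.6, 24.2 and 17.6 CPM in the Cre+ replicates and 2.97, 4.53 and 2.59 CPM in the Cre- replicates. The groups did not overlap, and it had the smallest p of the 10 genes, the 21st smallest of all genes tested. The difference was 6.98-fold, with a log2 fold change of 2.80 ± 0.44 (SE, edgeR adjusted p = 0.0598).

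The death receptors of the set were both higher in every Cre+ library. Fas (ENSMUSG00000024778) encodes the receptor for FAS ligand, and Tnfrsf10b (ENSMUSG00000022074) the mouse TRAIL receptor. Both carry a death domain that recruits the adaptor FADD and caspase 8. Fas had 247, 328 and 300 reads in Cre+ replicates 1, 2 and 3, against 0 reads in each Cre- library. Against a floor of 3 counts per Cre- library its mean of 2.77 ± 0.871 CPM (SD, n = 3) was at least 98.9-fold higher, and at least 82.0-fold without Cre+ replicate 2. That floor covers counting error only, and it lies below the median of 108 reads in genes seen in 1 library (edgeR adjusted p = 0.249). Tnfrsf10b stood at 22.7, 21.9 and 18.7 CPM in Cre+ and 6.60, 9.24 and 3.43 CPM in Cre-. The groups did not overlap, and the coefficient of variation was 10.2% in Cre+ and 45.3% in Cre-. The difference was 3.29-fold (log2 fold change 1.72 ± 0.45 SE, edgeR adjusted p = 0.278).

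Apaf1 and Pidd1 encode platforms on which caspases are activated, and both were expressed in all libraries of either genotype. APAF1 forms the apoptosome that activates caspase 9, and PIDD1 forms the PIDDosome that activates caspase 2. Pidd1 (ENSMUSG00000025507) was at 59.2, 56.9 and 65.4 CPM in Cre+ replicates and 38.0, 26.1 and 28.4 CPM in Cre- replicates, a 1.96-fold difference (log2 fold change 0.97 ± 0.21 SE, edgeR adjusted p = 0.202). Apaf1 (ENSMUSG00000019979) was at 55.0, 50.2 and 72.5 CPM in Cre+ and 42.01, 37.0 and 41.8 CPM in Cre-. Its difference was the smallest of the set, 1.47-fold, with a log2 fold change of 0.56 ± 0.20 (SE, edgeR adjusted p = 0.467). It was 0.38 without Cre+ replicate 3, its highest library.

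The other 3 genes act at different places. Trp53inp1 (ENSMUSG00000028211) encodes a nuclear stress protein that promotes p53 phosphorylation and also acts in autophagy. It was at 45.2, 45.9 and 43.2 CPM in Cre+ replicates 1, 2 and 3, and 1.29, 3.59 and 9.72 CPM in Cre- replicates 1, 2 and 3. The Cre+ libraries were the tightest of all 10 genes, with a coefficient of variation of 3.18%, against 89.6% in the Cre- libraries. The difference was 9.20-fold (log2 fold change 3.20 ± 0.63 SE, edgeR adjusted p = 0.151). Without Cre- replicate 3 the log2 fold change was 4.20 and passed over all genes (edgeR adjusted p = 0.0258, alternatives 6.94e-09 to 0.436), where 0.109% of genes were called higher.

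Aen (ENSMUSG00000030609) encodes an exonuclease that digests DNA and RNA during apoptosis. It was the member with the most reads in both genotypes, at 169, 139 and 112 CPM in Cre+ and 99.2, 81.2 and 82.0 CPM in Cre-. The groups did not overlap, and the difference was 1.60-fold (log2 fold change 0.68 ± 0.17 SE, edgeR adjusted p = 0.249). Perp (ENSMUSG00000019851) encodes a membrane protein of desmosomes that is also an apoptosis effector of p53. It had 246, 382 and 768 reads in Cre+ and 187, 0 and 380 reads in Cre-, so the groups overlapped. Its log2 fold change was 1.37 ± 1.78 (SE, edgeR adjusted p = 0.969). Single libraries moved it, to 0.79 without Cre- replicate 2, which had no read, 0.92 without Cre+ replicate 3 and 2.15 without Cre- replicate 3, and limma-voom gave 3.52.

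The tables also give, for each gene and library, the mean length of the transcripts to which RSEM assigned its reads, which shifts when the mix of isoforms shifts. Aen was the only one of the 8 members with reads in all libraries whose length was separated by genotype. Its mean length was 2282, 2089 and 2519 bases in Cre+ replicates 1, 2 and 3, against 1340, 1335 and 1588 bases in Cre- replicates 1, 2 and 3. Among 10685 tested genes with reads in all 6 libraries, 3.6% were longer in every Cre+ library and 3.68% were shorter in every Cre+ library. A single member of 8 is too few to set the members apart from these shares. Of the same genes 0.852% were both longer in every Cre+ library and at least 1.5 times longer, as Aen was. Aen has 9 annotated isoforms of 276 to 4956 bases. Per unit of length the difference in Aen was no longer seen. Its TPM (the deposited level scaled for transcript length) was 94.4, 87.5 and 57.2 in Cre+ and 108, 88.5 and 74.9 in Cre-. The groups overlapped in TPM, and with effective length offsets the log2 fold change was -0.15 ± 0.24 (SE, edgeR adjusted p = 0.986, alternatives 0.00126 to 0.986). More reads of Aen in Cre+ went together with longer assigned transcripts. Which reads lie where along the gene was not analysed here.

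**Figure D2:**
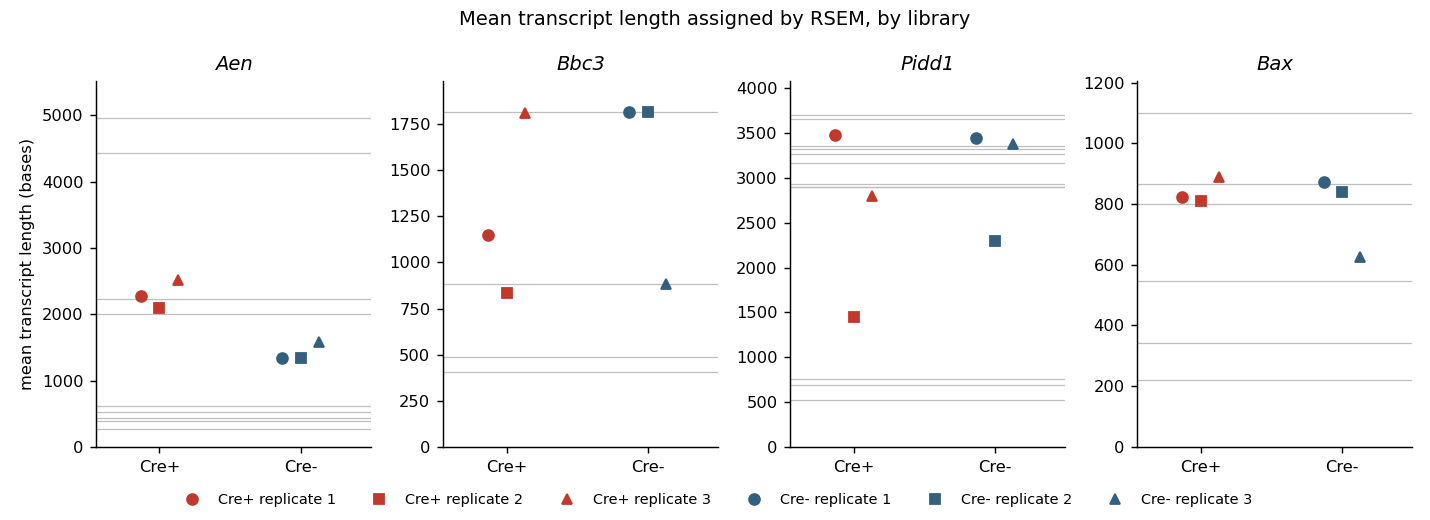
Mean transcript length in bases that RSEM assigned to Aen, Bbc3, Pidd1 and Bax (vertical axis, from 0) in Cre+ libraries, drawn left, and Cre- libraries, with the replicate number as the symbol and the annotated isoform lengths as grey lines. The Aen lengths of 2089 to 2519 bases in Cre+ lie above those of 1335 to 1588 bases in Cre-, and Bbc3 of Cre- replicate 3 sits on the 881-base line.

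The lengths also show to which isoforms RSEM assigned the few Bbc3 and Trp53inp1 reads of the Cre- group. The Bbc3 length was 1814 bases in Cre- replicates 1 and 2, that of a coding isoform, but 881 bases in Cre- replicate 3, that of an isoform annotated as a retained intron. In Cre+ replicates 1, 2 and 3 it was 1150, 835 and 1810 bases, so the libraries of this genotype differed in their mix. Trp53inp1 likewise had a length of 5404 bases, that of its coding isoform, in Cre- replicates 1 and 2, and 5432 bases, that of an isoform annotated as a processed transcript without coding sequence, in Cre- replicate 3. The highest Cre- value of both genes thus came from the same library and matched, to 2 decimals of the mean length, an isoform annotated as non-coding. The assignment rests on 452 reads for Bbc3 and 1208 for Trp53inp1 in that library.

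No other member changed sign with length. With effective length offsets the log2 fold change of Pidd1 was 1.45 in place of 0.97, that of Bax 1.01 in place of 1.22, and that of Bbc3 3.48 in place of 3.54. The standard error of Pidd1 was 0.39 with the offsets and 0.21 without them (edgeR adjusted p = 0.393 and 0.202). The mean length of Pidd1 was 1454 bases in Cre+ replicate 2, against 3475 and 2803 bases in Cre+ replicates 1 and 3. In TPM 7 of the 10 genes kept separated groups, against 5.87% of all tested genes higher in every Cre+ library, and Apaf1 joined Aen and Perp among those that overlapped. Pidd1 was separated in TPM, at 20.5, 56.1 and 29.4 in Cre+ and 13.7, 14.9 and 10.8 in Cre-.

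**Figure D3:**
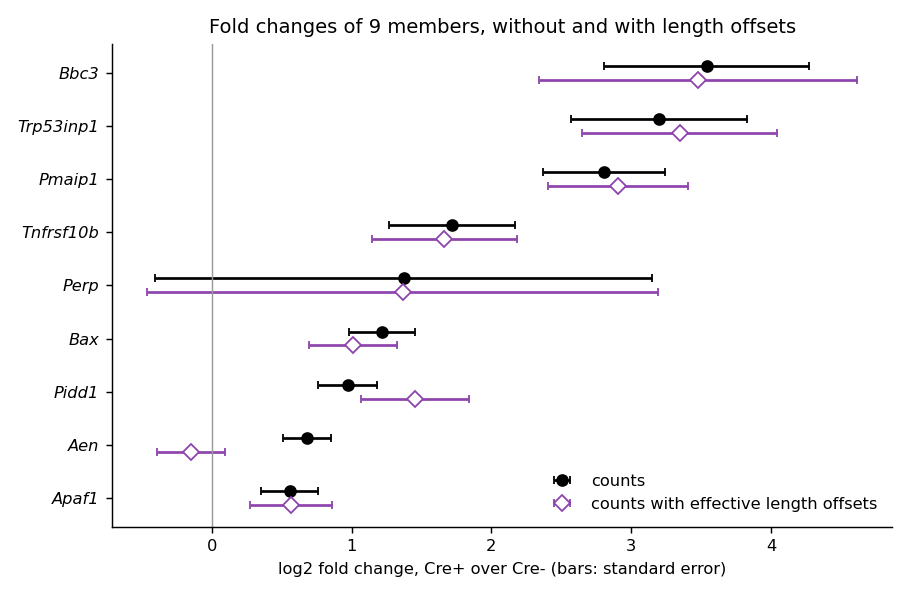
Log2 fold change of Cre+ over Cre- (horizontal axis, bars are standard errors) for 9 members from counts (filled circles) and from counts with effective length offsets (open diamonds), without Fas, which had no Cre- reads. Aen lies at 0.68 from counts and at -0.15 with the offsets, while the others stay above 0.

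Levels between genes can be compared per length. In Cre+ libraries Bax was highest, at 129 ± 32.4 TPM (SD, n = 3), followed by Aen at 79.7 ± 19.8 TPM, and the libraries of these genes did not overlap. Pidd1 (35.3 ± 18.5 TPM), Bbc3 (32.7 ± 30.4 TPM), Apaf1 (13.3 ± 4.15 TPM), Pmaip1 (11.6 ± 2.98 TPM) and Trp53inp1 (10.8 ± 2.12 TPM) came next, and each overlapped with its neighbour in this order. Tnfrsf10b followed at 8.25 ± 0.831 TPM with all libraries below those of Trp53inp1, and Perp (2.96 ± 1.63 TPM) and Fas (2.80 ± 0.946 TPM) were lowest and overlapped. In Cre- libraries the order was led by Aen (90.4 ± 16.5 TPM) and Bax (65.4 ± 16.9 TPM), which overlapped there. Pidd1 and Apaf1 followed at 13.1 ± 2.07 and 9.18 ± 1.85 TPM. The remaining 6 genes averaged at most 3.05 TPM in Cre-, with Fas listed at 0.

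Trp53, which encodes p53 itself, was at 280, 284 and 272 CPM in Cre+ replicates and 237, 244 and 243 CPM in Cre- replicates. The groups did not overlap, and the log2 fold change of 0.21 ± 0.09 (SE) did not pass (edgeR adjusted p = 0.559). Among 28 other p53 targets, 25 were tested. Of these 5 passed upward and 0 downward, against 0.122% and 0.0% of all tested genes. Before adjustment, 14 of the 25 were higher and 0 lower at an edgeR p under 0.05, against 4.05% and 4.19%. Libraries were separated upward in 14 and downward in 0, against 7.53% and 7.66% of all tested genes. The upward shift was thus not particular to the 10 members, and the median log2 fold change of this list was 1.39. Among the 25, 2 had no read in any Cre- library, Cdkn1a being one, and could therefore only differ upward. Both lie above the median even at their lower bounds, so the median could not move. The 5 that passed were Cdkn1a, Ccng1, Psrc1, Zmat3 and Gtse1. Cdkn1a, the cell cycle inhibitor p21, was at 63.0, 56.0 and 56.6 CPM in Cre+ and had 0 reads in each Cre- library (edgeR adjusted p = 0.000111). Limma-voom did not call Cdkn1a (adjusted p = 0.178, the highest of alternatives from 1.55e-32 to 0.178). Gtse1, a G2 and S phase protein that restrains p53, averaged 130 ± 19.9 CPM in Cre+ and 41.95 ± 9.52 CPM in Cre- (SD, n = 3 each; edgeR adjusted p = 0.0205, alternatives 1.57e-15 to 0.189). It missed the threshold with length offsets, on both log2 TPM scales and when Cre+ replicate 1, 2 or 3 or Cre- replicate 3 was left out. Zmat3 missed it on the log2 TPM scales alone, at adjusted p-values of 0.0845 and 0.135 by limma, and Ccng1 and Psrc1 passed under every alternative run. Mdm2, the feedback inhibitor of p53, averaged 122 ± 31.0 CPM in Cre+ and 58.7 ± 9.48 CPM in Cre- and did not pass (edgeR adjusted p = 0.154).

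The genes that work beside the 10 members in apoptosis did not pass in either direction. Over all tested genes, 4.19% were lower with an edgeR p under 0.05 before adjustment, 1.66% were called lower by DESeq2 and 7.66% were lower in every Cre+ library. Of 15 BCL2 relatives outside the set 9 were tested, with a median log2 fold change of -0.16. A single gene, 1 lower and 0 higher, had an edgeR p under 0.05 before adjustment and was called by DESeq2, and limma-voom called 0. It was Bcl2, the founding survival factor of the family, at 9.07, 13.6 and 5.31 CPM in Cre+ replicates and 28.2, 18.4 and 28.5 CPM in Cre- replicates. Its libraries were separated downward, with a log2 fold change of -1.43 ± 0.42 (SE, edgeR adjusted p = 0.314). Mcl1, another survival factor, had the opposite sign, and its libraries were separated upward. It was at 144, 159 and 138 CPM in Cre+ and 113, 133 and 129 CPM in Cre- (log2 fold change 0.23 ± 0.12 SE, edgeR adjusted p = 0.716). Bak1, the relative of Bax that forms the same kind of pore, had a log2 fold change of -0.39 ± 0.19 (SE, edgeR adjusted p = 0.685).

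Partners of the death receptors showed no common direction. Of 13 ligands, adaptors and relatives 9 were tested, none passed, and the median log2 fold change was -0.18. Before adjustment, 1 higher and 1 lower gene had an edgeR p under 0.05. DESeq2 called the same numbers after adjustment and limma-voom called 0. The higher gene was Tnfrsf26, a relative of the TRAIL receptors. It had no read in any Cre- library, so it could only differ upward, and most of its reads were in Cre+ replicate 3. Faim, which encodes an inhibitor of FAS-induced death, was at 44.6, 30.8 and 31.3 CPM in Cre+ and 48.4, 70.9 and 67.2 CPM in Cre- (log2 fold change -0.81 ± 0.23 SE, edgeR adjusted p = 0.307). With effective length offsets its log2 fold change was -0.53. Fasl, the ligand of FAS, had 0 reads in all 6 libraries.

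All 17 genes around the apoptosome, the PIDDosome and the caspases were tested, none passed, and their median log2 fold change was -0.17. Before adjustment, 0 higher genes and 1 lower gene had an edgeR p under 0.05, and DESeq2 and limma-voom called 0. The lower gene was Birc5, the mitotic inhibitor of apoptosis survivin, at 81.6 ± 7.18 CPM in Cre+ and 103 ± 7.80 CPM in Cre- (SD, n = 3 each). Cycs, the cytochrome c that APAF1 binds, averaged 159 ± 40.2 CPM in Cre+ and 200 ± 5.50 CPM in Cre- (log2 fold change -0.33 ± 0.16 SE, edgeR adjusted p = 0.695). Casp9 and Casp2, the caspases activated on APAF1 and PIDD1, had log2 fold changes of -0.28 ± 0.50 and -0.24 ± 0.25 (SE). Of 9 relatives and partners of Aen, Perp and Trp53inp1 7 were tested and none passed by edgeR, limma-voom or DESeq2, nor at an unadjusted p under 0.05 by edgeR, with a median log2 fold change of -0.09.

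**Figure D4:**
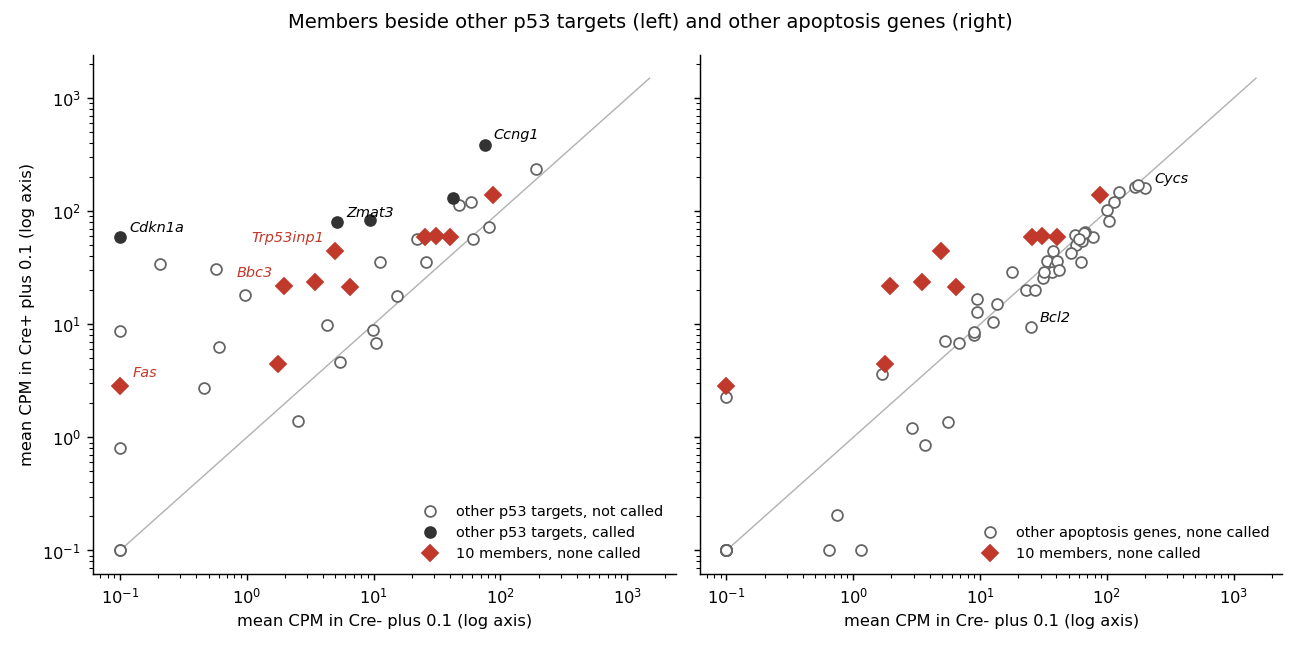
Mean CPM plus 0.1 in Cre+ (vertical, log axis) against Cre- (horizontal, log axis), n = 3 libraries each, for the 10 members (diamonds) beside 28 other p53 targets (left panel) and 54 other apoptosis genes and partners (right panel), with equal levels on the grey line. All 10 members lie above the line, as do the 5 called p53 targets (filled circles), while the other apoptosis genes lie on both sides of it.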

How the data were processed

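The labels name a stranded Takara Pico kit for total RNA, and 1 table per library was used. STAR 2.5.3a, RSEM 1.3.0 and the mouse build GRCm39 (mm39) are named in the submitters' processing notes. The annotation release is not given in the sources used here, nor is the strand setting. The deposited tables hold expected counts, which RSEM's model assigns per gene, per the file headers. The deposited TPM, named in the file headers, are levels relative to transcript length and library. Transcript lengths stand beside them.

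Expected counts were rounded (2.64% were not whole), filtered with filterByExpr, scaled by TMM (factors 0.988 to 1.017) and tested with edgeR 4.0.16 (R 4.3.3) at a threshold of 0.05. P-values were adjusted by Benjamini-Hochberg over all 13117 genes. CPM use the TMM-scaled totals. Standard errors are the log2 fold change over the square root of F. Alternatives used DESeq2 1.42.0, limma 3.58.1 (voom, and log2(TPM + 1) or log2(TPM + 0.1)), other scalings and filters, effective length offsets, a replicate block and single libraries left out. edgeR, limma-voom and DESeq2 were tested on simulated data.

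Symbols came from a table matched on 52081 of 55359 identifiers. Isoform lengths and sequences came from GENCODE M21, which is on GRCm38, so no coordinates are given. The 10 members and the lists were chosen with earlier results of these data known. Named are all members, Exosc3, Trp53, list genes past the threshold and the 2 others per list with the smallest p, some left out. Mdm2, Mcl1, Fasl, Casp2, Casp9, Tnfsf10, Gm45808, Kit, Car2, Cd24a, Epb42 and Mpo were added after their values were seen. Floors of 3 counts per library cover counting error only.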

Additional observations from a re-analysis of the deposited data

How the results depend on the processing

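The 10 members kept a positive log2 fold change under every alternative run, except Aen, which was -0.15 with effective length offsets, -0.20 on log2(TPM + 1) and -0.20 on log2(TPM + 0.1), where longer assigned transcripts lower its level per length. Members called higher numbered 0 in the main test, 8 by DESeq2's test, 2 without the filter, 4 of the 8 with a mean of at least 1000 counts (Bax, Bbc3, Pmaip1 and Trp53inp1), and 0 to 1 without single libraries. No member was called lower under any of them. Members with separated groups numbered 9 with TMM, DESeq2 or total scaling, and 7 in TPM, an alternative added after the data were seen. The share of all tested genes was 7.53% with TMM and 5.87% in TPM. Without single libraries the members numbered 9 to 10. Fewer libraries separate more easily and the share of all genes was not counted there, so these counts are not comparable with the others.

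All genes called higher numbered 16 in the main test, 235 by DESeq2's test, 33 without the filter, 58 with a mean of at least 1000 counts, 6 with effective length offsets and 6 on either TPM scale, and 7 to 15 without single libraries, with 7 without Cre+ replicate 2 and 8 without Cre+ replicate 1. Those called lower numbered 0, and 218, 6 and 26 under the first 3 of these, and 0 to 3 without single libraries. Other p53 targets called higher numbered 5, and 11 by DESeq2's test, 9 without the filter, 11 with a mean of at least 1000 counts, and 4 to 8 without single libraries. DESeq2's test called 1 lower BCL2 relative (Bcl2), 1 higher death receptor partner (Tnfrsf26) and 1 lower (Faim). The cause was not tested. Fewer genes tested is part of the construction of the filter at 1000 counts.

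The design pairs samples by litter, but the labels do not say whether the replicate numbers mark litters, so the numbers were not used to pair libraries. Same-numbered libraries correlated at 0.026, 0.0534 and 0.0725 in their deviations from the group means, each best with its own number. All were under the 0.1 set for using the numbers. The deviations within a group are tied to each other by their shared mean, so the matches are not independent. These correlations therefore do not decide whether the numbers mark the pairs. A fit that blocks on this number called 38 genes higher (0.29% of those tested) and 18 lower by edgeR. It called 2 members higher, Pmaip1 (adjusted p = 0.0481, alternatives 2.98e-10 to 0.303) and Trp53inp1 (adjusted p = 0.0364, alternatives 6.94e-09 to 0.436), and 9 other p53 targets, among them Mdm2 (adjusted p = 0.0272, alternatives 6.55e-06 to 0.513).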

Other observations

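A ligand and a relative of the death receptors had few reads. Tnfsf10, which encodes TRAIL, the ligand of the Tnfrsf10b receptor, had 154, 92 and 179 reads in Cre+ replicates 1, 2 and 3, and 670, 533 and 549 reads in Cre- replicates 1, 2 and 3. Its libraries were separated downward, and its log2 fold change was -2.10 ± 1.06 (SE, edgeR adjusted p = 0.697). Tnfrsf26, a relative of the TRAIL receptors, had 19, 63 and 659 reads in the Cre+ replicates and 0 reads in each Cre- library, and most of its reads were in Cre+ replicate 3 (edgeR adjusted p = 0.324).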
